A study of Rattus norvegicus with 20 samples.

Results

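The embryonic rat testis was examined for 8 genes named as markers of the mesonephric tubule epithelium: Cdh16, Cdh1, Cldn3, Cldn6, Cldn8, Epcam, Enpep and Aqp3. They were taken as all probe sets that the platform annotation gave to those 8 symbols, 10 probe sets of 31042, and 9 of the 10 were bright enough to be tested, so each of the 8 genes had a tested probe set. RNA from Sprague-Dawley testes was measured on 20 arrays in 10 groups of 2. In utero, the testes came from embryos of dams injected daily with 100 mg/kg of vinclozolin or with DMSO alone. Vinclozolin is a fungicide whose breakdown products block the androgen receptor. The injections were scheduled over E8 to E14, and the testes were collected at E13, E14 or E16. Collection at E13 thus fell before the last injection day, that at E14 on it and that at E16 after it. In vitro, E13 gonads were cultured for 3 days with the mesonephros attached and were parted from it before RNA was taken. One gonad of an embryo received vinclozolin at 50 µM in DMSO or flutamide, a drug that blocks the androgen receptor, at 0.5 µM in ethanol, and the gonad of the other side received the solvent. The labels state no such parting for the testes collected in utero. Whether separate animals or pools stand behind the arrays of a group is not stated there, and the p-values speak only of the spread from array to array.

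The mesonephros is the transient kidney that lies against the early gonad. Its duct and tubules form an epithelium, and in the male they persist as the epididymis and the efferent ducts that carry sperm from the testis. Epithelial cells hold together through cadherins and related adhesion proteins, seal the space between them with claudins, and carry transporters and peptidases on their surface. Cdh16 encodes kidney-specific cadherin, a cadherin of tubule cells. Cldn3, Cldn6 and Cldn8 encode claudins of the tight junction, Cldn6 being a claudin of embryonic epithelia. Cdh1 encodes E-cadherin and Epcam an epithelial adhesion protein, and in the mouse both are also made by primordial germ cells. Enpep encodes glutamyl aminopeptidase, which trims angiotensin, and Aqp3 a channel for water and glycerol.

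The 3 claudin genes are shown by the 250 bases before their start because their signals moved together between the 2 vehicle arrays of E14. The sequences are from RefSeq (GRCr8), which held a promoter for 6 of the 8 genes. Capitals mark the E-box CAGGTG, the motif bound by Snail and Zeb factors, which reads CACCTG on the strand printed here. Cldn6 lies at chr10:13215558-13215807 on the + strand, Cldn3 at chr12:27346548-27346797 on the - strand and Cldn8 at chr11:41364331-41364580 on the - strand.
Cldn6: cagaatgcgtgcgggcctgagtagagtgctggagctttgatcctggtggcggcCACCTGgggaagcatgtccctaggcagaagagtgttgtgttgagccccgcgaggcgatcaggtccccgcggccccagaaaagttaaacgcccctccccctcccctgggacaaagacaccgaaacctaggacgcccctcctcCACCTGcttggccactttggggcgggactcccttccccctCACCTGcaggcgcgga
Cldn3: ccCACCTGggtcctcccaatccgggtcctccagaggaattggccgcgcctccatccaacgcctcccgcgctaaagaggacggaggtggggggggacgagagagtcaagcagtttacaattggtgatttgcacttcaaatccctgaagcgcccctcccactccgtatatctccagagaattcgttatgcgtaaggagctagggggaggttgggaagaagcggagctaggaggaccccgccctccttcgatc
Cldn8: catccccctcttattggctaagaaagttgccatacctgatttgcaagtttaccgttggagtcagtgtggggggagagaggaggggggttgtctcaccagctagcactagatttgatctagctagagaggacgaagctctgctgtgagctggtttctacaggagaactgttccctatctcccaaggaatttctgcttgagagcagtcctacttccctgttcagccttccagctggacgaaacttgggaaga

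Cldn6 held 3 copies of the E-box, 197, 56 and 16 bases before its start. Of 33469 rat promoters of 300 bases (250 before the start and 50 after it, both strands read), 0.359% held 3 or more. Cldn3 held 1 copy, 248 bases before its start, and Cldn8 none. Single copies also stood 165 bases before the start of Epcam and 25 bases before that of Aqp3, and Enpep held none. In all, 4 of the 6 promoters held the motif, against 18.8% of all promoters. The grainyhead motif AACCGGTT, its looser form AACCNGTT and the HNF1 site GTTAAT were in none of the 6, and in 0.173%, 2.1% and 7.45% of all promoters. These matches describe letters in a window and show no binding. Cdh16 (chromosome 19, 367202 to 377710 in GRCr8) and Cdh1 (chromosome 19, 51402178 to 51471572) are named only.

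Values are signal intensities on a linear scale. As deposited, they had been scaled to a common trimmed mean within each of 3 sets, 210.1 for the in utero arrays (12), 218.1 for those cultured with vinclozolin or DMSO (4) and 107 for those cultured with flutamide or ethanol (4). Testing required 2 or more arrays at or above the 40th percentile of all signals on the array. That percentile was 31.6 to 42.1 in the first set, 39.6 to 41 in the second and 26.5 to 30.7 in the third. Changes are differences of log2(signal + 16), which understate those of dim genes. They passed at an adjusted p under 0.05 over all 22526 tested probe sets (limma with Benjamini-Hochberg adjustment). Some arrays stood apart. E14 vehicle replicate 1 had 1553.9 for the Sertoli cell hormone gene Amh, against 4892.5 to 5795.5 on the other E14 arrays, and 1534.6 for the immediate early gene Fos, against 18.3 to 289.2. The E13 arrays numbered 1 had 896 (vinclozolin) and 758.6 (vehicle) for Xist, the RNA of the inactive X chromosome, against 17.9 and 20.4 on those numbered 2. The same arrays numbered 1 were low in Amh, with 372.4 (vinclozolin) and 106 (vehicle), against 1102.2 and 1484.7 on those numbered 2. At E14 Xist was 32 and 489.9 on the vinclozolin arrays and 174.9 and 184.4 on the vehicle arrays, and at E16 it was 2.4 to 16.6. E16 vehicle replicate 1 had 535.5 for the Leydig cell hormone gene Insl3, against 2066.1 to 2638.5 on the other E16 arrays. Across whole groups, the Y chromosome gene Eif2s3y had 902.6 to 1248.9 at E14, against 2363.1 to 3182.4 at E13 and 2364.2 to 3495.7 at E16. In the cultures with flutamide or ethanol, Fos had 973.9 to 1289.4, Xist 168.2 to 211.9 and Eif2s3y 668.3 to 764.8. In those with vinclozolin or DMSO, Fos had 69.7 to 84.4, Xist 5.1 to 112.8 and Eif2s3y 3115.1 to 3330.2. These culture signals are from sets scaled to 107 and to 218.1, so they do not share a scale. The part of these differences in the values of the 8 genes was not tested. Amh, Fos, Xist and Eif2s3y were chosen after their values were seen.

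The 8 genes did not behave as 1 group. Cdh16, Cldn3, Cldn6 and Cldn8 had by far their highest in utero signal on a single array, E14 vehicle replicate 1. Cdh1 and Epcam were bright on all in utero arrays. Enpep climbed over the 3 days on the probe set that stands for it but not on its other one. Aqp3 was high at E13 and E14 and low at E16.

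**Figure D1:**
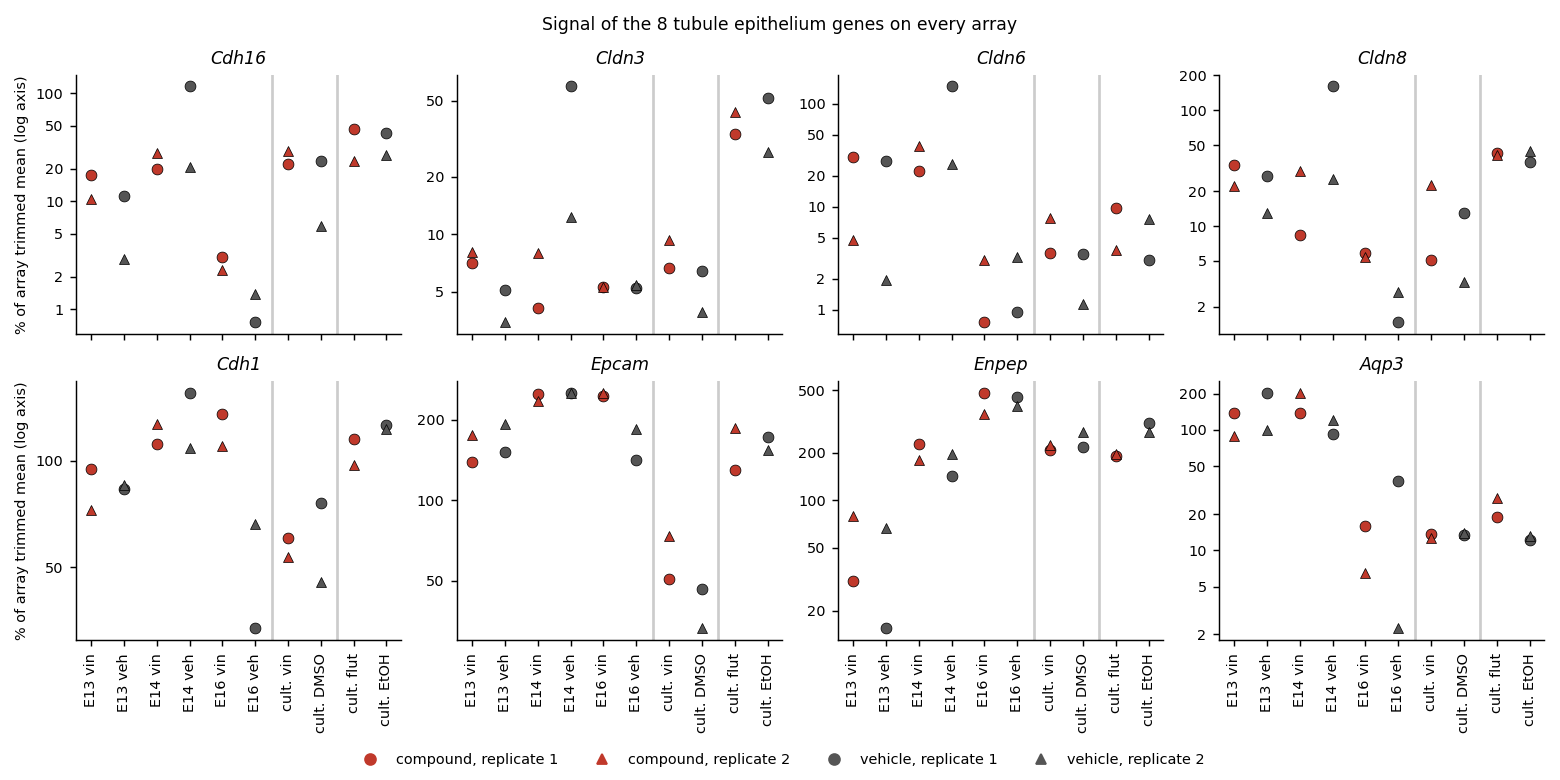
Signal of each gene on every array, as a percentage of the trimmed mean of that array (log axis). Red marks compound and grey marks vehicle; circles are replicate 1 and triangles replicate 2, and the vertical lines part the in utero, vinclozolin culture and flutamide culture sets, which were scaled separately. For Cdh16, Cldn3, Cldn6 and Cldn8 the highest in utero point is E14 vehicle replicate 1.

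Cdh16 had 37.2 and 22 (vinclozolin) and 23.3 and 6.1 (vehicle) at E13. At E14 it had 41.8 and 58.5 with vinclozolin and 242.8 and 43.8 with vehicle. At E16 it had 6.4 and 4.9 with vinclozolin and 1.6 and 2.9 with vehicle. It thus reached the 40th percentile on all 4 arrays of E14 and on none of E13 or E16.

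Cldn6 had 63.5 and 10 (vinclozolin) and 58.1 and 4.1 (vehicle) at E13. Its E14 signals were 46.6 and 81.5 with vinclozolin and 308.3 and 54.2 with vehicle. Its E16 signals were 1.6 and 6.4 with vinclozolin and 2 and 6.9 with vehicle. In both treatments of E13 the array numbered 1 was the higher by far, and these are the arrays with high Xist. The part of that difference between the arrays in the Cldn6 values was not tested.

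Cldn8 had 70.5 and 46.9 (vinclozolin) and 57 and 27 (vehicle) at E13. At E14 it had 17.6 and 62.9 with vinclozolin and 337.6 and 53.9 with vehicle. At E16 it had 12.4 and 11.3 with vinclozolin and 3.1 and 5.7 with vehicle. Apart from the 1 bright array, its E13 and E14 values overlapped.

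For Cldn3, E14 vehicle replicate 1 was the only in utero array on which it reached the 40th percentile. It had 8.7 and 16.7 (vinclozolin) and 124.9 and 26.1 (vehicle) at E14. Its signal was 7.3 to 17 over the 4 arrays of E13 and 11 to 11.5 over those of E16.

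Cdh1 had 199.1 and 152.8 (vinclozolin) and 174.5 and 179.3 (vehicle) at E13. At E14 it had 236 and 266.7 with vinclozolin and 328.1 and 228 with vehicle. At E16 it had 286.4 and 230.9 with vinclozolin and 70.4 and 139.1 with vehicle. The E16 vehicle arrays were the lowest of the 12. A second Cdh1 probe set read 0.2 to 19.2 over all 20 arrays, under the 40th percentile on each, and was not tested.

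Epcam was the steadiest of the 8 at E14, with 523.6 and 491.2 (vinclozolin) and 529.4 and 526.5 (vehicle). It had 292.2 and 368.6 (vinclozolin) and 317.2 and 405.3 (vehicle) at E13. By E16 it stood at 514.5 and 527.1 with vinclozolin and 296.1 and 389.3 with vehicle. The vinclozolin arrays of E16 thus lay in the range of E14, and the vehicle arrays in that of E13.

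Enpep had 64.5 and 166.8 (vinclozolin) and 32.4 and 140.9 (vehicle) at E13. At E14 it had 481.1 and 381.1 with vinclozolin and 298 and 414.2 with vehicle. By E16 it reached 1010.9 and 743.6 with vinclozolin and 948.2 and 831.5 with vehicle. Its 3 stages did not overlap. A second Enpep probe set read 93.8 to 169.9 at E13, 181.3 to 223.4 at E14 and 120 to 154.6 at E16, and did not show that climb, so the 2 probe sets of the gene disagree.

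Aqp3 had 291.9 and 188.5 (vinclozolin) and 428.5 and 208.9 (vehicle) at E13. At E14 it had 290.1 and 427.9 with vinclozolin and 193.8 and 257.2 with vehicle. At E16 it had 33.4 and 13.7 with vinclozolin and 78.7 and 4.7 with vehicle. Every E16 array lay below every earlier one, and the vehicle arrays of E16 lay far apart.

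Summed over Cdh16, Cldn3, Cldn6 and Cldn8, a grouping made after the values were seen, the signal was 114.7 and 219.6 on the vinclozolin arrays of E14 and 1014 and 178 on the vehicle arrays. It was 44.5 to 186 at E13 and 17.7 to 33.7 at E16. E14 vehicle replicate 1 had 5.54 times the Cdh16 signal of replicate 2, 4.79 times that of Cldn3, 5.69 times that of Cldn6 and 6.26 times that of Cldn8. For Cdh1 the ratio was 1.44, for Epcam 1.01, for Enpep 0.719 and for Aqp3 0.753. Of the 12 in utero arrays it was the highest for 6 of the 8 genes, all but Enpep and Aqp3, whereas 11.8% of all tested probe sets were highest there. In bulk RNA, fewer cells of a type and less RNA per cell cannot be told apart.

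**Figure D2:**
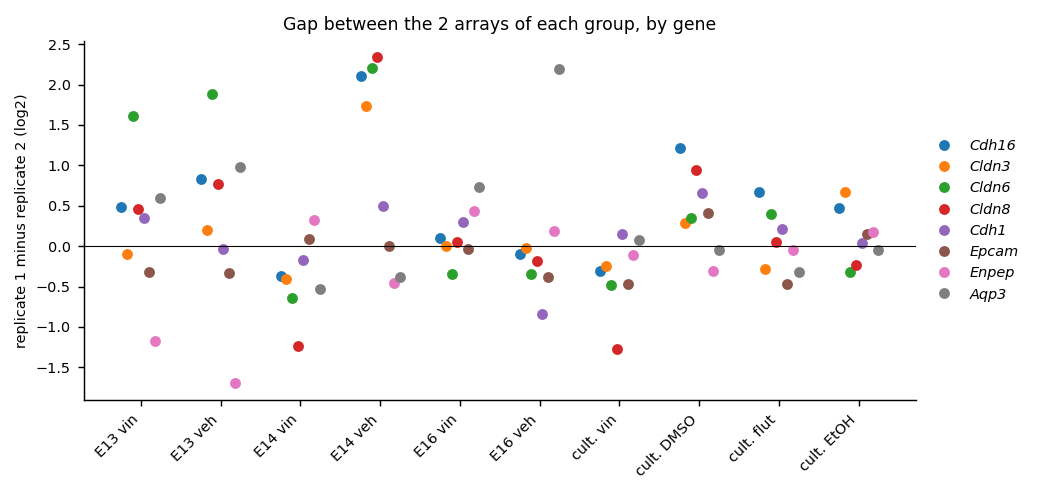
Difference between replicate 1 and replicate 2 of each group for each gene, in log2(signal + 16). The 4 points at the top of the E14 vehicle column are Cldn8 (2.34), Cldn6 (2.21), Cdh16 (2.11) and Cldn3 (1.74); Aqp3 of E16 vehicle (2.19) is the other value above 2, and Enpep and Cldn6 lie at opposite ends at E13.

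Marker genes of other cells differed between the same pair of E14 vehicle arrays. Of 25 other genes of tubule epithelium on the array (claudins, keratins, epithelial splicing factors), 21 were higher on replicate 1, with a median difference of 0.49 on the log2 scale, and 16 had their highest in utero value there. Of 13 duct and tubule regulators, 9 were higher on it (median 0.68). The 4 red blood cell genes were also higher (median 1.99). All 11 Sertoli cell genes and all 9 primordial germ cell genes were lower (medians -1.24 and -0.76). Of the proximal tubule list, 11 of 19 were higher (median 0.094), and of the tight junction and polarity list 9 of 19 (median -0.045). The part of those other differences in the signals of the 4 genes was not tested.

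**Figure D3:**
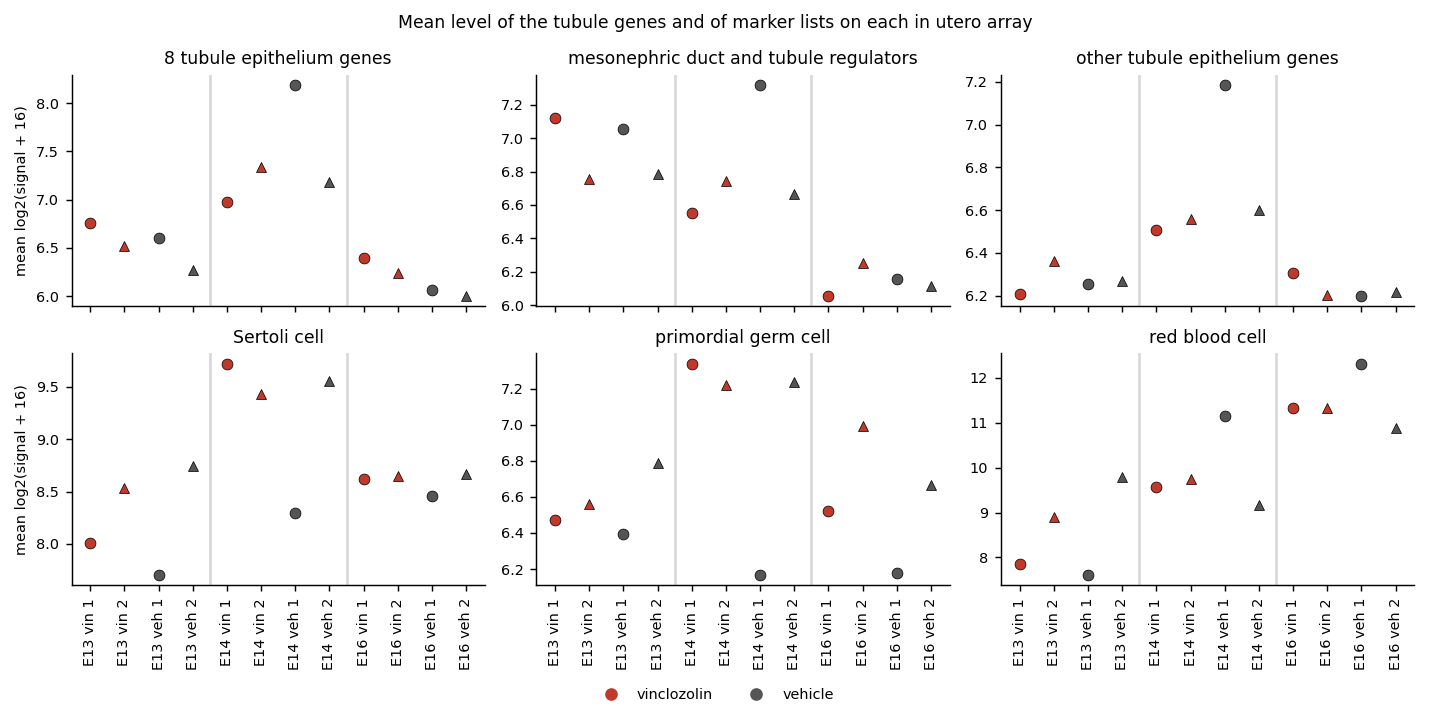
Mean log2(signal + 16) of the 8 genes and of 5 marker lists on each in utero array, with vinclozolin in red and vehicle in grey (circles replicate 1, triangles replicate 2). E14 vehicle replicate 1 is the highest array for the 8 genes (8.19), the duct and tubule regulators (7.32) and the other tubule epithelium genes (7.18), and among the E14 arrays the lowest for Sertoli cell and germ cell genes.

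From E13 to E14, with both treatments averaged, 5 of the 8 genes rose and none fell, where 13.1% of all tested probe sets rose and 12% fell. The 8 genes were chosen with earlier results of these data known, so the shares here and below only describe them. Enpep rose 3.93-fold, by 1.97 on the log2 scale (SE 0.29, limma adjusted p 0.000283, n = 4 and 4). Its second probe set differed by 0.45 (SE 0.19, limma adjusted p 0.0965) and did not pass. Cldn6 rose by 1.37 (SE 0.46), Cdh16 by 1.31 (SE 0.37), Epcam by 0.57 (SE 0.15) and Cdh1 by 0.54 (SE 0.19), with limma adjusted p of 0.0366, 0.0168, 0.0125 and 0.0455. Cldn3 differed by 0.73 (adjusted p 0.0733), Cldn8 by 0.49 (0.423) and Aqp3 by 0.077 (0.897). The median over the 8 was 0.65, against 0.073 over all tested probe sets.

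Without E14 vehicle replicate 1, the values of Cdh16, Cldn6 and Cdh1 were 0.78, 0.82 and 0.41 and no longer passed (limma adjusted p 0.0813, 0.184 and 0.161), leaving 2 genes called, Enpep (2.09) and Epcam (0.57). Without E13 vehicle replicate 2 or E13 vinclozolin replicate 2, 2 genes passed as well, and without E14 vehicle replicate 2, 7 did. The E13 arrays numbered 1, those with high Xist, were the lower pair for Enpep. Without both, Enpep rose by 1.25 (adjusted p 0.000507), Cldn6 by 2.25 and Cdh16 by 1.64 (adjusted p 0.00294 and 0.0167), and Epcam (0.41, adjusted p 0.123) and Cdh1 (0.615, adjusted p 0.0697) did not pass.

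From E14 to E16, with both treatments averaged, 6 of the 8 genes fell and 1 rose, where 23.2% of all tested probe sets fell and 18.3% rose. Because the choice of the 8 was made with earlier results of these data known, the count beside these shares is no independent support. Aqp3 fell 7.21-fold, by 2.85 on the log2 scale (SE 0.35, limma adjusted p 1.45e-05, n = 4 and 4). Cldn6 fell by 2.43 (SE 0.46, adjusted p 0.000526) and Cdh16 by 2.19 (SE 0.37, adjusted p 0.000234), which are 5.41-fold and 4.55-fold. Cldn8 fell by 1.92 (SE 0.42, adjusted p 0.00161), Cldn3 by 0.78 (SE 0.29, adjusted p 0.0379) and Cdh1 by 0.64 (SE 0.19, adjusted p 0.0113). Enpep rose by 1.14 (SE 0.29, adjusted p 0.0043), while its second probe set differed by -0.44 (adjusted p 0.0779). Epcam differed by -0.29 (SE 0.15, adjusted p 0.143). For 4 of the 8, Cdh16, Cldn6, Cldn8 and Aqp3, every E16 array lay below every E14 array, which held for 19.1% of all tested probe sets. The median over the 8 was -1.35, against -0.060 over all.

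Without E14 vehicle replicate 1, Aqp3 (-2.95), Cldn6 (-1.88), Cdh16 (-1.66) and Cldn8 (-1.33) still passed, with limma adjusted p from 6.61e-05 to 0.00763, while Cldn3 (-0.35, adjusted p 0.245) and Cdh1 (-0.52, adjusted p 0.055) did not. Cdh1 also lost its call without E16 vehicle replicate 1 (-0.43, adjusted p 0.0681), and Cldn3 without E14 vinclozolin replicate 2 (-0.68, adjusted p 0.111) or any 1 of the 4 arrays of E16 (-0.79 to -0.78, adjusted p 0.075 to 0.081). The E16 signals of Cdh16, Cldn6 and Cldn8 were all below the 40th percentile, as were 3 of the 4 of Aqp3, and the size of their fall rests on the pseudocount. The change of Aqp3 was -3.68 with a pseudocount of 1 and -1.90 with a pseudocount of 64. With every value under that percentile raised to it, Cdh16 differed by -0.75 (adjusted p 0.056) and Cldn3 by -0.35 (adjusted p 0.207).

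In vehicle testes alone, the same 6 genes fell and Enpep rose (12.6% and 9.38% of all tested probe sets). The second Enpep probe set differed by -0.48 (limma adjusted p 0.223). The changes were -2.95 for Cldn8 (SE 0.59), -2.89 for Cldn6 (SE 0.65), -2.77 for Cdh16 (SE 0.52), -2.43 for Aqp3 (SE 0.49), -1.499 for Cldn3 (SE 0.41) and -1.32 for Cdh1 (SE 0.27), with limma adjusted p from 0.00217 to 0.0162 (n = 2 and 2). Without E14 vehicle replicate 1, 4 of the 8 passed, at -2.63 for Aqp3, -1.78 for Cldn8, -1.71 for Cdh16 and -1.08 for Cdh1, and Cldn6 (-1.79), Cldn3 (-0.63) and Enpep (1.07) did not (adjusted p 0.0836, 0.242 and 0.163). Cldn3 also lost its call without either E16 vehicle array (-1.49 and -1.51, adjusted p 0.0666 and 0.0642), and Enpep without E14 vehicle replicate 2 or either E16 vehicle array (1.21 to 1.53, adjusted p 0.0551 to 0.127).

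**Figure D4:**
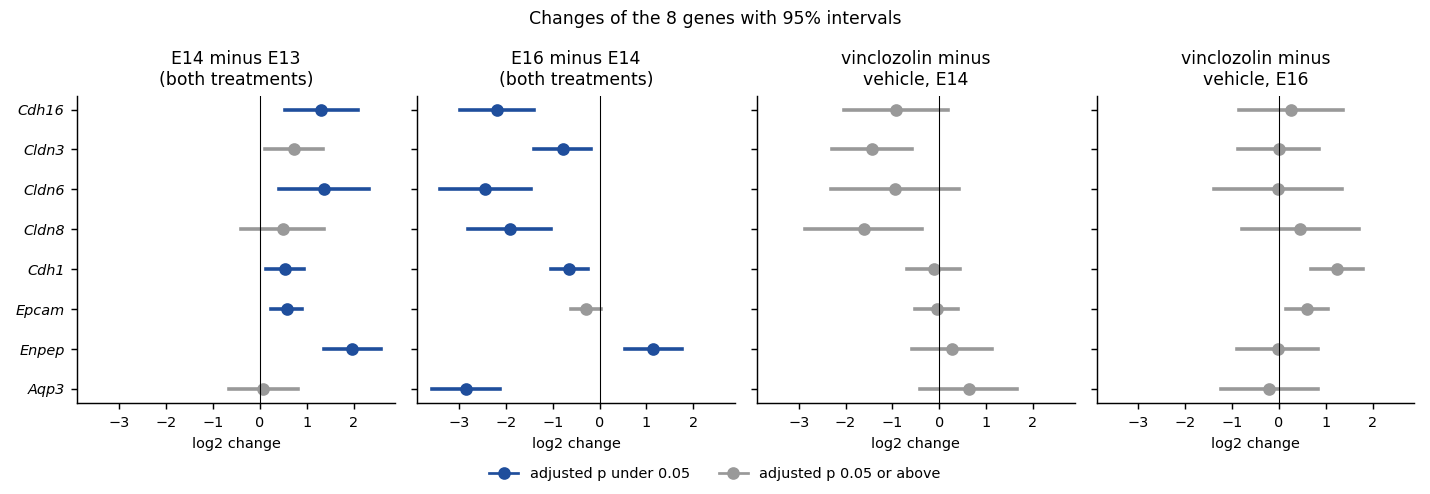
Change of each gene in 4 comparisons, as a difference of log2(signal + 16) with its 95% interval. Blue marks an adjusted p under 0.05 over all tested probe sets and grey one at or above it; 5 genes are blue in the first panel, 7 in the second and none in the vinclozolin panels.

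Lists of other genes of the same structures are read against the 23.2% of all tested probe sets that fell and the 18.3% that rose between E14 and E16. These lists too were chosen with earlier results of these data known. Of 11 tested duct and tubule regulators, 8 fell and none rose (median -0.77). Among them were Tfcp2l1, a factor of distal nephron epithelium (-1.13, SE 0.19), Bmp7, a growth factor of nephron progenitors (-1.06, SE 0.16), Pax8, a kidney-specifying factor (-1.01, SE 0.28), and Wt1 (-0.73, SE 0.10), which the gonad also uses. Their limma adjusted p lay between 3.13e-05 and 0.00869. Of 19 other tubule epithelium genes, 7 fell and none rose (median -0.52). Cldn7 changed by -1.65 and the keratin gene Krt18 by -0.98. Cldn7 reached the 40th percentile only on the vehicle arrays of E14 and had 1.2 to 20.3 at E16. It thus entered the test only through the group where it was high, and its fall, counted among the 7, is a description only. The splicing factor gene Esrp1 changed by -0.90 and the protease inhibitor gene Spint2 by -0.84 (limma adjusted p 0.00124 to 0.00376 over the genes named). On E14 vehicle replicate 1, Cldn7 had 191.9, Pax8 238.2 and Tfcp2l1 156.2. The other E14 arrays had 17 to 42.9, 70.4 to 115.1 and 71.9 to 91.4. Krt18, Esrp1, Spint2, Bmp7 and Wt1 instead had their lowest E14 signal on E14 vehicle replicate 1, where Sertoli and germ cell genes were also low. The list changes were not refitted without it. The part of other cells in them was not tested.

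Of 10 tested proximal tubule genes, 4 fell and 1 rose. The endocytic receptor gene Cubn fell by 0.95, Ggt1 by 0.70 and the aminopeptidase gene Anpep by 0.47. Mme, the gene of another surface peptidase, rose by 0.47 (limma adjusted p 0.00339 to 0.0212 over the genes named). Cubn reached the 40th percentile only on E14 vehicle replicate 1 (49.3) and E14 vinclozolin replicate 2 (41.7), and had 2.4 to 11.6 at E16. It thus entered the test only through the stage where it was high, and its fall is a description only. Of 17 tight junction and polarity genes, 7 fell and 2 rose. Jup, plakoglobin, fell by 0.92 and the polarity gene Pard6b by 0.88. Pals1, a scaffold of apical polarity, rose by 1.20 and Cldn11, the claudin of the Sertoli cell barrier, by 0.91 (limma adjusted p 1.42e-05 to 4.22e-05). Of 4 glomerulus genes 1 rose and 1 fell, of 7 coelomic epithelium genes 2 rose and none fell, and of 7 regulators of epithelial to mesenchymal change Zeb2 rose by 0.49 and Snai1 fell by 0.93.

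Genes of the testis itself moved in the same interval. All 6 Leydig cell genes rose (median 4.81), 3 of 4 red blood cell genes rose (median 1.42), 2 of 9 germ cell genes fell (Kit by 1.10 and Tfap2c by 0.92), and of 11 Sertoli cell genes 7 fell and 2 rose (median -0.76). The part of these shifts in the change of the 8 genes was not tested.

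By the mean absolute difference of centred log2 values over the 12 in utero arrays, the 10 genes nearest to the mean profile of the 8 were Sned1 (0.181), Adcy4 (0.192), Atrnl1 (0.199), Draxin (0.2), Atxn2 (0.204), Zfp36 (0.209), Mau2 (0.211), S1pr3 (0.212), Fat4 (0.213) and Tsc2 (0.213). The median over all 11669 genes compared was 0.516. The 10 were picked as the nearest, so their place under that median was fixed in advance. They were drawn only from the 5263 genes that passed a minimum range, set from that of the mean profile. The 8 genes themselves differed from their own mean profile by 0.306 (Cldn3) to 1.36 (Enpep), which is more than any of these 10. Sned1 had 327.3 and 424.9 (vinclozolin) and 570.3 and 414.6 (vehicle) at E14, and it fell by 0.85 from E14 to E16 (limma adjusted p 0.000185).

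None of the 8 genes passed between vinclozolin and its vehicle at any stage or in culture. At E16 no probe set of 22526 passed (0%), and 1506 had an unadjusted p under 0.05. Cdh1 had the largest difference of the 8. It was higher on both vinclozolin arrays, 286.4 and 230.9, than on both vehicle arrays, 70.4 and 139.1, a difference of 1.24 on the log2 scale or 2.36-fold (SE 0.27, 95% interval 0.68 to 1.80, unadjusted p 0.000229, limma adjusted p 0.47). Epcam was higher by 0.59 or 1.51-fold (SE 0.22, 95% interval 0.14 to 1.05, limma adjusted p 0.621). Cdh16 differed by 0.25 and Cldn8 by 0.45, both under the 40th percentile on all 4 arrays. For these 4 genes the vinclozolin arrays lay above the vehicle arrays without overlap, as did 24.3% of all tested probe sets, and for none did they lie below (14.9%). Cldn3, Cldn6, Enpep and Aqp3 differed by -0.0079, -0.032, -0.034 and -0.21, with 95% intervals that reached from -1.40 to 1.33 at their widest, for Cldn6. The value of Aqp3 turned on single arrays, at 0.89 without E16 vehicle replicate 1 and -1.31 without E16 vehicle replicate 2.

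The difference in Cdh1 depended on which vehicle array was used. Without E16 vehicle replicate 2 it was 1.66 (limma adjusted p 0.0441, with 28 probe sets called), and without E16 vehicle replicate 1 it was 0.82 (adjusted p 1, with none called). Lists of other cells also set E16 vehicle replicate 1 apart, in both directions. The summed signal of the 6 Leydig cell genes was 20582 and 18932 with vinclozolin and 10468 and 18517 with vehicle, and that of the 4 red blood cell genes 18961 and 18188 with vinclozolin and 27770 and 15610 with vehicle. The coelomic epithelium genes summed to 1916.6 and 1987.5 with vinclozolin and 2701.3 and 2139.4 with vehicle. The 9 germ cell genes summed to 728.6 and 1080.6 with vinclozolin and 554.9 and 817.6 with vehicle. The 11 Sertoli cell genes summed to 9413.8 and 10082 with vinclozolin and 8902.7 and 10539 with vehicle. E16 vehicle replicate 1 was thus the lowest of the 4 for Leydig cell, germ cell and Sertoli cell genes. It was the highest for red blood cell and coelomic epithelium genes. The tight junction gene Ocln had 554.5 and 518.7 with vinclozolin and 201.8 and 484.1 with vehicle (0.74, limma adjusted p 0.621), and the receptor gene Kit, a marker of germ cells and Leydig cells, had 50.5 and 75.2 with vinclozolin and 10.2 and 34.8 with vehicle (1.09, adjusted p 0.594). Insl3 had 2638.5 and 2371.3 with vinclozolin and 535.5 and 2066.1 with vehicle.

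No list gave a call in this comparison. All 6 Leydig cell genes were above 0 (median 0.73), as were 6 of 9 germ cell genes (median 0.27), 12 of 19 other tubule epithelium genes (median 0.14), 8 of 10 proximal tubule genes (median 0.16) and 5 of 11 duct and tubule regulators (median -0.071). Other lists lay mostly below 0, with 2 of 7 coelomic epithelium genes above it (median -0.15), 1 of 4 red blood cell genes (median -0.30) and 1 of 4 glomerulus genes (median -0.16). The median over all tested probe sets was 0.041. The mean log2 level of the germ cell list was 6.52 and 6.99 with vinclozolin and 6.18 and 6.67 with vehicle. The part of germ cell, Leydig cell or other RNA in the Cdh1 and Epcam values was not tested.

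At E14, 1 probe set of all tested passed between vinclozolin and vehicle (0.00444%), and none of the 8 genes. Cldn8 differed by -1.61 (SE 0.59, 95% interval -2.86 to -0.36) and Cldn3 by -1.44 (SE 0.41, 95% interval -2.30 to -0.58), both with a limma adjusted p of 0.888, and the values of Cldn6 and Cdh16 were -0.95 and -0.92. Cdh1 and Epcam differed by -0.12 and -0.056, and Enpep by 0.27. Aqp3 differed by 0.62 (SE 0.49, 95% interval -0.42 to 1.66, limma adjusted p 0.898). It lay above vehicle without overlap, and Cldn3 and Epcam lay below it, 1 and 2 of 8, as did 14% and 13.1% of all tested probe sets. The values of the 4 genes of lowest difference turned on the bright vehicle array. Without E14 vehicle replicate 1 the differences were -0.44 for Cldn8, -0.57 for Cldn3, 0.15 for Cldn6 and 0.13 for Cdh16. Without E14 vehicle replicate 2 they were -2.78, -2.31, -2.05 and -1.98, and Cldn8 and Cldn3 passed (limma adjusted p 0.0229 and 0.00656) among 272 probe sets.

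At E13, vinclozolin and vehicle differed by -0.33 (Aqp3) to 0.61 (Cdh16), and no probe set passed (0%, with 402 at an unadjusted p under 0.05). The effect of vinclozolin at E16 minus that at E14 was 2.06 for Cldn8 (SE 0.83), 1.43 for Cldn3 (SE 0.58), 1.36 for Cdh1 (SE 0.38) and 0.65 for Epcam (SE 0.31). None of the 8 passed, each of the 4 having a limma adjusted p of 0.865, and no probe set did (0%, with 1222 at an unadjusted p under 0.05). Without E14 vehicle replicate 1, the value of Cldn8 was 0.89 and that of Cldn3 0.56.

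In culture, the genes kept different levels. The culture sets were scaled apart from the in utero arrays, so levels are given as a percentage of each array's trimmed mean and are not tested against them, and culture and experiment cannot be told apart. Cdh16 stood at 5.87% to 29.1% on the vinclozolin and DMSO arrays, and at 23.7% to 46.5% on the flutamide and ethanol arrays, against 2.9% to 17.7% at E13, 19.9% to 116% at E14 and 0.762% to 3.05% at E16. Enpep stood at 208% to 272% and 190% to 308%, against 15.4% to 79.4% at E13, 142% to 229% at E14 and 354% to 481% at E16. Its second probe set stood at 40.9% to 73.6% and 42.2% to 82.2%, against 44.7% to 80.9% at E13, 86.3% to 106% at E14 and 57.1% to 73.6% at E16. The 2 probe sets thus disagree on the level in culture against E13. Aqp3 stood at 12.6% to 13.9% and 12.2% to 27.4%, against 89.7% to 204% at E13, 92.3% to 204% at E14 and 2.24% to 37.5% at E16.

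Other genes differed between the culture experiments. Cldn3 stood at 3.94% to 9.31% on the vinclozolin and DMSO arrays and at 26.9% to 51.6% on the flutamide and ethanol arrays, Cldn8 at 3.26% to 22.4% and 35.9% to 44.7%, Epcam at 33.2% to 73.3% and 130% to 186%, and Cdh1 at 45.5% to 76.1% and 97.5% to 126%. These 4 of the 8 genes were higher in the flutamide set without overlap and none was lower, as were 25.8% and 15.3% of all tested probe sets. The 40th percentile itself stood at 18.2% to 18.8% of the trimmed mean in the vinclozolin set and at 24.8% to 28.7% in the flutamide set. Cldn6 was under the 40th percentile on all 8 culture arrays, at 1.15% to 9.72%.

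With neither compound did any of the 8 genes pass in culture, nor did any tested probe set (0% in both, with 610 for vinclozolin and 494 for flutamide at an unadjusted p under 0.05). With vinclozolin, Epcam had 111 and 159.8, against 101.7 and 72.5 with DMSO, a difference of 0.55 (SE 0.22, 95% interval 0.09 to 1.01, limma adjusted p 1). Epcam, Cldn3 and Cldn6 lay above DMSO without overlap, 3 of 8, as did 15.6% of all tested probe sets. With flutamide, Enpep had 203.3 and 211.6, against 329.8 and 290.4 with ethanol, a difference of -0.54 (SE 0.40, 95% interval -1.40 to 0.31, limma adjusted p 1). Aqp3 lay above ethanol without overlap and Enpep and Cdh1 below it, 1 and 2 of 8, as did 21.1% and 16.9% of all tested probe sets. The second Enpep probe set went the other way, with 64.7 and 88 on the flutamide arrays, against 45.2 and 53.6 on the ethanol arrays (0.49, limma adjusted p 1), so the direction of Enpep is not settled.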

How the data were processed

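The deposited values were linear signal intensity from MAS5, run in GCOS for the culture arrays, per the submitters' processing notes, which name no version. Arrays of a set shared a trimmed mean (2% left out at each end), and no further normalization was applied. From these intensities, log2(signal + 16) was computed. Probe sets at or above the 40th percentile of their array on at least 2 of 20 arrays were tested, 57 control probe sets being left out. All 20 arrays entered 1 fit with 1 mean per group (limma 3.58.1, R 4.3.3, variance trend, 10 residual and 6.76 prior degrees of freedom), with two-sided p-values and Benjamini-Hochberg adjustment. The number of arrays limits the precision.

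The probe set of highest mean stood for its gene. Of 11 marker lists, up to 4 genes of smallest p were named; for likeness, the 10 nearest genes. The 8 genes and the lists were chosen with earlier results of these data known. Symbols came from the platform annotation and positions from RefSeq (GRCr8). Tested on simulated data, the fit recovered 79% of 2-fold and 98% of 4-fold changes for E16 minus E14. For vinclozolin at E16 it recovered 38% and 87%. It also called 11 and 7 unchanged probe sets. The simulated noise was Gaussian and independent for each probe set, so no simulated array departed as a whole. These shares therefore do not cover arrays that stood apart, such as E14 vehicle replicate 1. Alternatives covered scaling, pseudocount, filter, arrays fitted, trend, replicate block and each array left out.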

Additional observations from a re-analysis of the deposited data

How the results depend on the processing

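Of 319 alternatives to the 19 changes of the 8 genes that passed, none turned the direction and 48 lost the call; of 801 alternatives to the 53 that did not pass, 8 passed and 49 turned sign. Of the 8 genes, 3 passed from E13 to E14 with a pseudocount of 1, with the arrays of the same experiment alone and without both E13 arrays numbered 1, and 2 with values under the 40th percentile raised to it. With a pseudocount of 1, 0 probe sets passed for vinclozolin at E14, 5 at E16 and 4 for flutamide. With a pseudocount of 64, 1 passed for the difference of the vinclozolin effects (E16 minus E14). The arrays of the same experiment alone gave 3075 for E16 minus E14 in vehicle testes. Raising low values gave 2 for vinclozolin at E16 and 1 for the difference. The causes were not tested. The count with low values raised and the crossed pairing were chosen after seeing the data. Arrays with the same number did not deviate together in every group (correlations 0.602 at E13, -0.0547 at E14, -0.112 at E16, 0.115 and -0.000125 in the cultures). With 2 arrays a group, this does not show that pairs are absent. The main fit took no numbers as pairs, so it left out the pairing of the 2 gonads of an embryo in culture. The replicate block gave 3 probe sets for vinclozolin at E14, 1 at E16 and 3 for the difference, and crossing the numbers at E16 gave 5, with 0 of the 8 genes.

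With each array left out in turn, the other array of its group being assumed to vary like the rest, 2 to 7 of the 8 genes passed from E13 to E14 (3654 to 6302 probe sets), and 4 to 6 from E14 to E16 in vehicle testes (2846 to 2983). For vinclozolin, 0 to 4 probe sets passed at E13, 0 to 272 at E14 with 0 to 2 of the 8 genes, 0 to 28 at E16 with 0 to 1, and 0 to 2 for the difference. The change from E13 to E14 spanned -0.0997 to 1.07 for Cldn8 and -0.169 to 0.323 for Aqp3. The vinclozolin difference at E14 spanned -1.98 to 0.134 for Cdh16 and -2.05 to 0.154 for Cldn6, and that at E16 -1.31 to 0.888 for Aqp3 (0.0773 with a pseudocount of 1). Signal over background limits Cdh16, Cldn3, Cldn6 and Cldn8 at E16, where all lay under the 40th percentile.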
